A study of Mus musculus with 8 samples.

Results

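Imprinted genes are expressed mainly from the copy inherited from 1 parent, and 38 of them were selected by symbol from the 54532 genes of the count table. They were chosen as a family and because Peg10 had been seen not to overlap between genotypes, so the genotype values below are a description of the selected genes and not a test of them. By textbook knowledge, 20 are expressed from the paternal copy, 13 from the maternal copy and 5 from either copy by tissue or isoform. They lie in 17 domains on 9 chromosomes, and 32 are protein coding and 6 noncoding.

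RNA was sequenced from the cortex of 8 C57BL/6 mice at 8 months of age, 1 library per mouse. The study's methods state that male mice were used. All 8 mice carried the PS19 transgene, human 1N4R tau with the P301S substitution under the mouse prion promoter, so no mouse without the tau transgene enters the comparison. The 4 PS19 mice (m677, m668, m665 and m659) had both normal copies of Adrb1, which encodes the β1-adrenergic receptor, and the 4 Adrb1+/m;PS19 mice (m671, m661, m660 and m658) had 1 copy with the A187V knock-in made by CRISPR. Libraries held 14653222 to 21223754 counts in PS19 and 16865651 to 20802158 in Adrb1+/m;PS19. A pair of libraries stood apart in RNA of the choroid plexus: the summed level of 10 markers was 609 CPM (a gene's counts scaled to a common library size) in m658 and 384 in m668, against 30.3 to 156 in the other 6 mice.

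Imprinting is set in the germ line by DNA methylation of control regions, which then hold 1 parental copy silent across a cluster of neighbouring genes. Many paternally expressed genes promote growth and many maternally expressed genes restrain it, and the brain is among the tissues with the most imprinted expression. Read counts sum both parental copies, so the parental origin of the RNA, and therefore imprinting itself, was not measured here. In bulk tissue, fewer cells of a type and less RNA per cell cannot be told apart.

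Levels are given first per transcript length, as TPM (counts scaled by gene length and then to a common total) averaged over the 8 mice. They ran from 0.070 to 675 TPM with a median of 13.9. The highest were Nap1l5, a nucleosome assembly protein relative, at 675 TPM, the noncoding RNA Meg3 at 588, the splicing protein gene Snrpn at 521, the proteolipid gene Nnat at 291 and Impact, a regulator of translation, at 279. Peg10, a gene derived from a retrotransposon, was 17th with 22.1 TPM, and Dlk1 was at 6.16 TPM. At the low end, 4 members were under 1 TPM, namely Airn, Calcr, H19 and Phlda2.

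**Figure D1:**
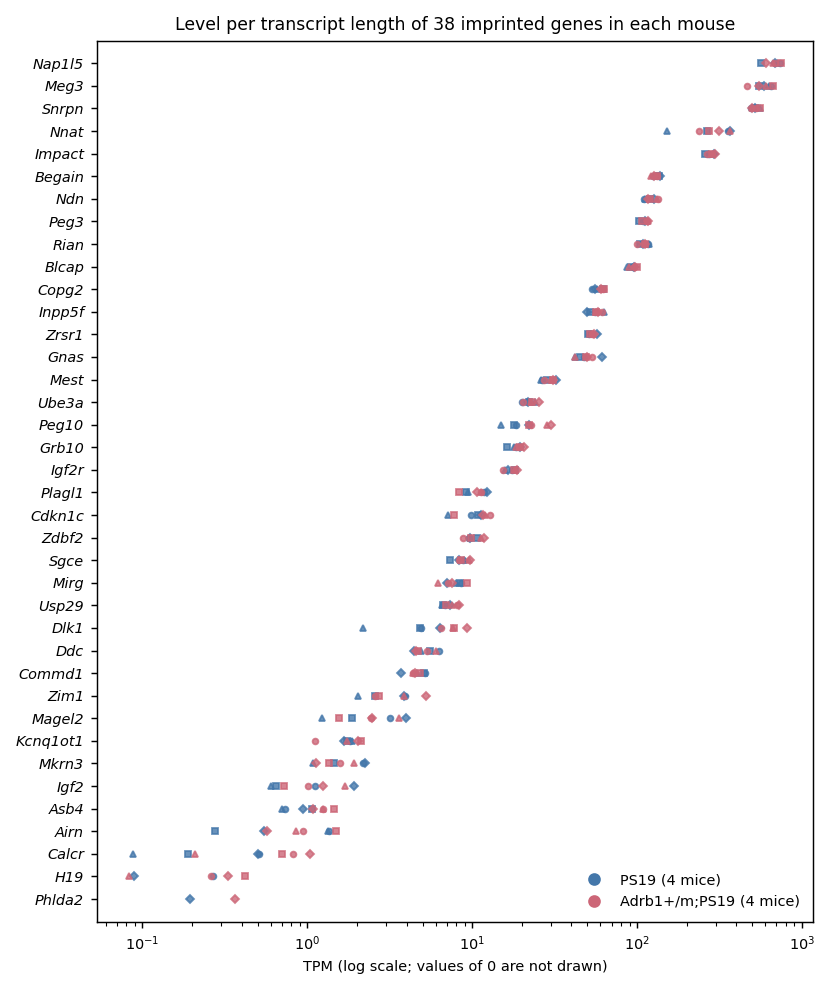
TPM (log axis) of the 38 imprinted genes in each of the 8 mice, with PS19 in blue and Adrb1+/m;PS19 in red. Points of 1 gene mostly lie close together beside a range between genes from 0.070 TPM (Phlda2) to 675 TPM (Nap1l5).

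Of the 38 members, 35 passed the filter on low counts. At an unadjusted p under 0.05 in edgeR's quasi-likelihood test, 3 were higher in Adrb1+/m;PS19 (Peg10, Dlk1 and Usp29) and 0 were lower, which is 8.57% of 35 beside 2.8% of all 17195 genes tested. Genes called higher were 1.42% of all genes and genes called lower 1.37%. Since these genes were chosen with the contrast in view, nothing is read from the difference between these shares. No member passed the Benjamini-Hochberg adjustment over all genes, where the smallest adjusted p of the members was 0.9996 (edgeR quasi-likelihood). In log2 fold change, 24 members were above 0 and 11 below, with a median of 0.06, and over all genes the median was 0.00046. Without Peg10, 2 of 34 (5.88%) were called and the median was 0.05. By parental copy, 3 of 20 paternally expressed genes and 0 of 10 maternally expressed genes were called, with medians of 0.07 and 0.06.

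**Figure D2:**
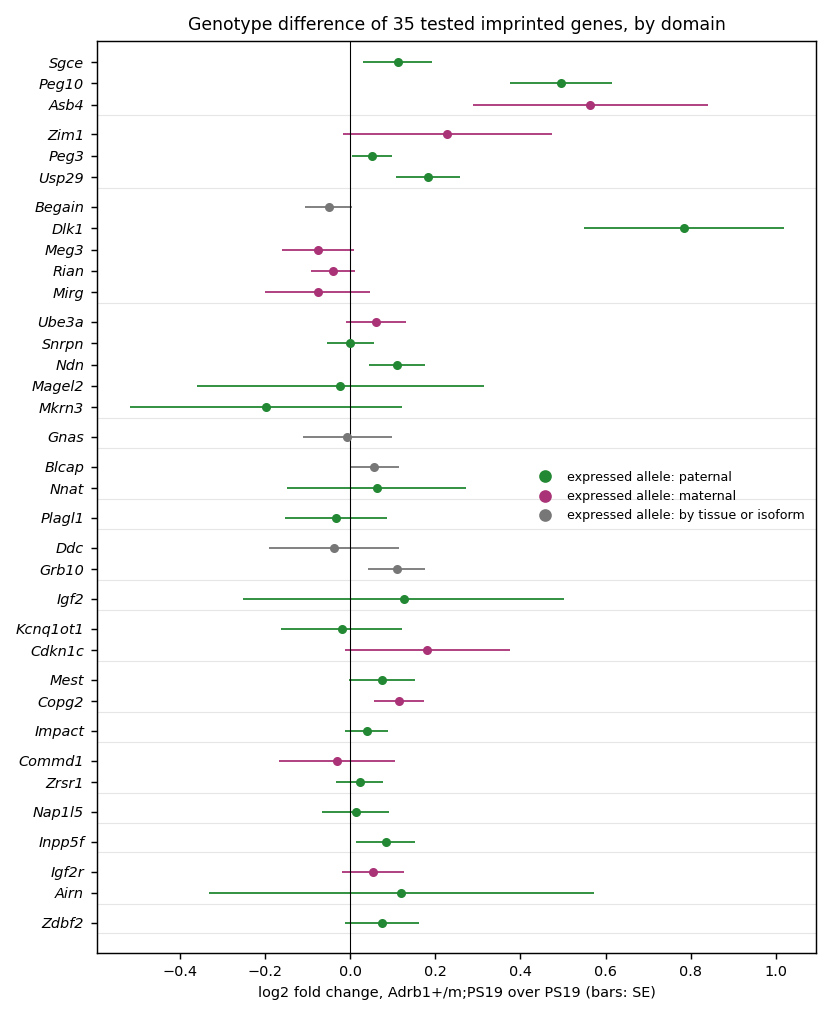
Log2 fold change (Adrb1+/m;PS19 over PS19, bars are SE) of the 35 tested imprinted genes, grouped by domain and coloured by the expressed copy. Dlk1, Asb4 and Peg10 sit at 0.78, 0.56 and 0.50, and most others lie near 0.

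The Peg10 domain on chromosome 6 held the member that prompted the choice. Peg10 (chr6:4747306-4760517, plus strand) was at 34.2, 33.3, 27.2 and 40.7 CPM in the PS19 mice and at 42.8, 40.7, 51.6 and 55.4 CPM in the Adrb1+/m;PS19 mice. The difference was 0.50 ± 0.12 on the log2 scale (SE). The genotypes were separated by little: the highest PS19 mouse, m659, was at 40.66 CPM and the lowest Adrb1+/m;PS19 mouse, m661, at 40.71 CPM. That gap of 0.053 CPM is smaller than the counting error of 1.56 CPM behind the first value, and the genotypes overlapped when DESeq2 size factors replaced the trimmed-mean (TMM) scaling. Peg10 kept an unadjusted p under 0.05 in 14 of 14 alternative analyses, those without each mouse included. These reuse the counts in which Peg10 was picked, so they describe its dependence on processing and are no further support.

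Sgce, which encodes a sarcoglycan and starts beside Peg10 on the other strand, was at 24.5 ± 1.90 CPM in PS19 and 26.6 ± 1.84 in Adrb1+/m;PS19 (SD, n = 4), a log2 difference of 0.11 ± 0.08 (SE). Peg10 ran at 105 to 166 CPM per 100 CPM of Sgce in PS19 and at 162 to 194 in Adrb1+/m;PS19, ranges that overlap. Asb4, a subunit of a ubiquitin ligase, was low, at 0.80, 1.17, 0.76 and 1.02 CPM in PS19 and at 1.38, 1.58, 1.34 and 1.19 CPM in Adrb1+/m;PS19. Its genotypes did not overlap (3 of 35 members did not, 8.57%, beside 2.02% of all genes), but its gap of 0.015 CPM lay between 17 and 21 counts, and its difference of 0.56 ± 0.28 was not called. Calcr, the calcitonin receptor, failed the filter with 9, 3, 2 and 9 counts in PS19 and 15, 16, 4 and 20 in Adrb1+/m;PS19, which overlap.

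The Dlk1-Dio3 domain on chromosome 12 combines paternally expressed coding genes with maternally expressed noncoding RNAs. Dlk1, a transmembrane relative of the Notch ligands, was at 7.72, 7.59, 3.40 and 9.88 CPM in PS19 and at 10.3, 12.1, 11.8 and 14.5 CPM in Adrb1+/m;PS19. The genotypes did not overlap under any of the scalings compared (TMM, DESeq2 size factors and plain CPM). Their gap of 0.44 CPM, from m659 at 9.88 to m671 at 10.32 CPM, is smaller than the counting error of 0.771 CPM behind the m659 value. The difference was 0.78 ± 0.23 on the log2 scale. It was called in 14 of 14 alternatives, which reuse the same counts, and within them it ranged from 0.53 to 0.99. Mouse m665 held the lowest value, and the difference was 0.53 without it. The noncoding RNAs of the domain were near 0 in log2 difference, Meg3 at -0.08 ± 0.08, Rian at -0.04 ± 0.05 and Mirg at -0.08 ± 0.12, and so was Begain, a synaptic scaffold protein gene, at -0.05 ± 0.05. Per 100 CPM of Meg3, Dlk1 was at 0.108 to 0.337 CPM in PS19 and 0.364 to 0.524 in Adrb1+/m;PS19, which do not overlap. That ratio carries the separation of Dlk1 itself and is no further support.

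The Peg3 domain on chromosome 7 gave the third call. Usp29, a ubiquitin-specific protease gene, was at 34.4, 33.5, 32.4 and 36.7 CPM in PS19 and at 41.5, 34.9, 37.4 and 41.9 CPM in Adrb1+/m;PS19. The groups overlapped and the difference was 0.18 ± 0.07 (SE). Its call was lost without m668, m665, m671 or m658, and without m658 and m668 together. Peg3, a zinc finger protein gene, was at 405 ± 15.7 and 419 ± 14.2 CPM (SD, n = 4), and Zim1, another zinc finger gene, at 6.91 ± 2.08 and 8.07 ± 2.74 CPM, with log2 differences of 0.05 ± 0.05 and 0.23 ± 0.25. Usp29 shares 14.8% of its exon positions with 2 other gene models, of which Zim3 on the opposite strand is the larger partner, and strand use in counting is not given in the sources used here.

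**Figure D3:**
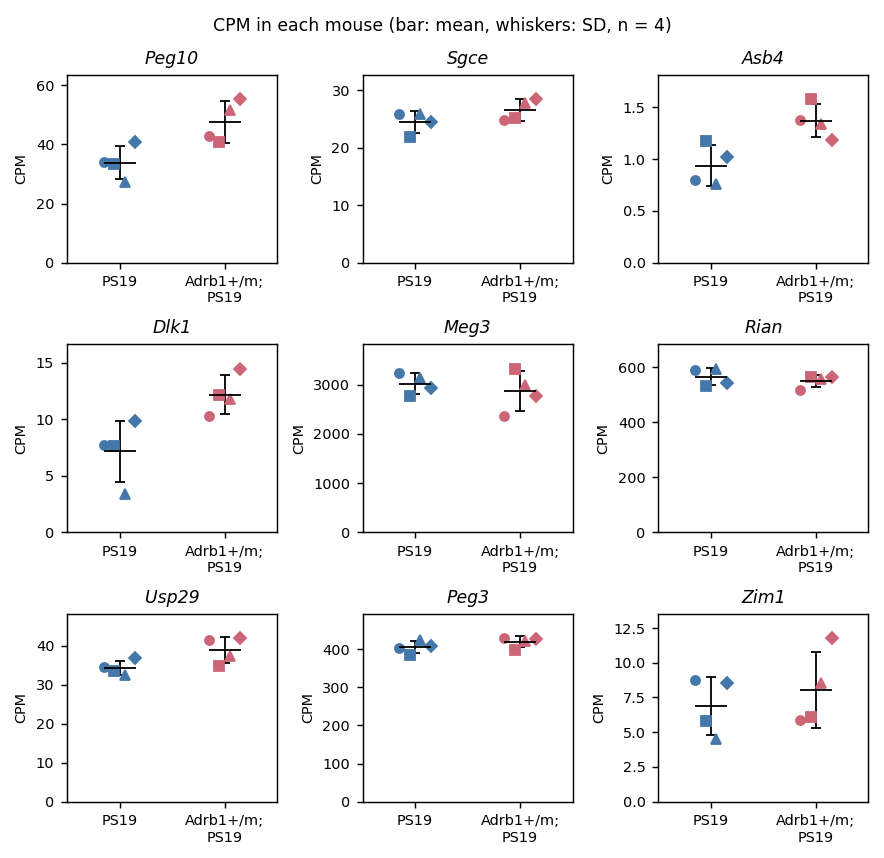
CPM of 3 genes from each of the Peg10 (top row), Dlk1-Dio3 (middle) and Peg3 (bottom) domains in each mouse, with the mean (bar) and SD (whiskers, n = 4). Peg10 and Dlk1 sit higher in the 4 Adrb1+/m;PS19 mice, while Sgce, Meg3, Rian, Peg3 and Zim1 overlap between genotypes.

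The start regions of the called genes are shown because control of imprinting acts through CpG methylation, which was not measured here. RefSeq windows of 300 bases (build GRCm38.p6, 250 before to 50 after a start) were found for 33 of the 38 members. Peg10 and Sgce had none. Capitals mark CpG dinucleotides in the 3 windows below, written 5′ to 3′ on the strand of the gene. They are Dlk1 (chr12:109452573-109452872, + strand), Meg3 from the same domain (chr12:109540746-109541045, + strand) and Usp29 (chr7:6730333-6730632, + strand).
Dlk1: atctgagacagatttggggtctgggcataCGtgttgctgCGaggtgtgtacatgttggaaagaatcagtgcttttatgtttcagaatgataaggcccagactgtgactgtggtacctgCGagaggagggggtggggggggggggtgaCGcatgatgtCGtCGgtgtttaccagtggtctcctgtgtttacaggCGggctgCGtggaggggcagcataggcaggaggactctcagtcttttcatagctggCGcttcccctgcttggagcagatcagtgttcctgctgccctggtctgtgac
Meg3: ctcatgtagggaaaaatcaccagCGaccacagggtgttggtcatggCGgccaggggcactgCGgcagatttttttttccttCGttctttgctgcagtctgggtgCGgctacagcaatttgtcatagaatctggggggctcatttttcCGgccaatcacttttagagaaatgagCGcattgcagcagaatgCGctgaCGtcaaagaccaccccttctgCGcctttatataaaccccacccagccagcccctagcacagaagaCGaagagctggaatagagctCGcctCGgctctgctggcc
Usp29: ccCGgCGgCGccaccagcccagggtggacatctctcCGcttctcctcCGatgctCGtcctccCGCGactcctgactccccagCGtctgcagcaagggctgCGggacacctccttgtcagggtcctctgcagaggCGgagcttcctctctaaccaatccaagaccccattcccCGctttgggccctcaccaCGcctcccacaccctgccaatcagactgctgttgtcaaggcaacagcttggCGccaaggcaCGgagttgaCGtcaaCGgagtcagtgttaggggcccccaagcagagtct
They hold 9, 13 and 17 CpGs, beside a median of 15 over the 55 windows of members and 7 over all 32851 windows. Usp29 and Peg3 start 164 bases apart on opposite strands, so the Usp29 window also holds the Peg3 start. The letters TGCCGC or their reverse complement GCGGCA, the core that the imprint-maintaining factor ZFP57 is known to bind, were in 14 of the 55 windows (25.5%) and in 11.6% of all windows. The letters themselves hold a CpG, and the windows of members held more CpGs, with the medians of 15 and 7 given above. Several members have more than 1 window, and 2 overlapping windows of Mest hold the same 2 matches. Nothing is read from the difference between these shares, and a match of letters is not a site.

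In the Prader-Willi/Angelman domain on chromosome 7, 0 of 5 members were called. Snrpn was at 311 ± 14.5 and 311 ± 18.7 CPM in PS19 and Adrb1+/m;PS19 (SD, n = 4). Ube3a, a ubiquitin ligase whose maternal copy is the one used in neurons, was at 126 ± 8.84 and 131 ± 11.7 CPM. Ndn, which encodes necdin, had a log2 difference of 0.11 ± 0.07. Magel2, a necdin relative, and Mkrn3, a zinc finger protein gene, were low and variable, with differences of -0.02 ± 0.34 and -0.20 ± 0.32. Snrpn and Ube3a share exon positions with other genes over 34.1% and 27.3% of their length, for Ube3a on the opposite strand.

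Of the growth regulators, Igf2, insulin-like growth factor 2, was at 1.69 ± 0.955 and 1.85 ± 0.625 CPM (SD, n = 4), and 64.5% of its exon positions are shared with 2 overlapping gene models, so its level is uncertain. Igf2r, the receptor that clears it, was at 43.7 ± 2.96 and 45.2 ± 3.45 CPM, and Airn, the antisense RNA of Igf2r, at 0.872 ± 0.545 and 0.963 ± 0.385 CPM. Cdkn1c, an inhibitor of cyclin-dependent kinases, differed by 0.18 ± 0.19 on the log2 scale, and Kcnq1ot1, the noncoding RNA of its domain, by -0.02 ± 0.14. Grb10, an adaptor of the insulin receptor, differed by 0.11 ± 0.07, its neighbour Ddc, aromatic amino acid decarboxylase, by -0.04 ± 0.15, and Plagl1, a zinc finger factor, by -0.03 ± 0.12. H19 had 3, 0, 0 and 1 counts in PS19 and 3, 6, 1 and 4 in Adrb1+/m;PS19, and Phlda2 0, 0, 0 and 1 against 0, 0, 0 and 2. Both failed the filter, and since 3 counts correspond to 0.141 to 0.205 CPM in these libraries, no fold is given.

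The remaining members differed little. Nnat was at 144 ± 50.5 CPM in PS19 and 151 ± 26.0 in Adrb1+/m;PS19 (SD, n = 4), a log2 difference of 0.06 ± 0.21 (SE), with m665 low at 76.3 CPM. Blcap, which hosts Nnat in an intron, differed by 0.06 ± 0.06. Mest, a hydrolase gene, and Copg2, a coatomer subunit gene on the opposite strand, differed by 0.07 ± 0.08 and 0.11 ± 0.06, and they share exon positions over 23.1% and 17.8% of their lengths. Zrsr1, a splicing factor gene inside Commd1, differed by 0.02 ± 0.06, and Commd1, a copper regulator, by -0.03 ± 0.14. Gnas, which encodes a stimulatory G protein subunit of the kind that β1-adrenergic receptors use, was at 151 ± 25.6 and 151 ± 16.5 CPM. Nap1l5, Impact, Inpp5f, a phosphoinositide phosphatase gene, and Zdbf2 differed by 0.01 ± 0.08, 0.04 ± 0.05, 0.08 ± 0.07 and 0.07 ± 0.09.

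Whether imprinted genes moved together from mouse to mouse was examined on log2 CPM over all 8 mice. In 32 pairs within a domain, 0 had an adjusted p under 0.05 and 5 an unadjusted one (Pearson's r, exact permutation, 2-sided, Benjamini-Hochberg over 32). Zrsr1 and Commd1 came nearest, with r = -0.90 and rho = -0.88 (exact permutation p = 0.00166 and 0.00724, adjusted 0.0532 and 0.116), and r was -0.73 without the 2 mice farthest out on Zrsr1. These 2 genes lie on opposite strands and overlap in 9.17% of the exon positions of Zrsr1. How reads there were counted is not given in the sources used here, and the part of the overlap in this r was not tested. Magel2 and Mkrn3 had r = 0.83 and Meg3 and Rian 0.80. Snrpn and Magel2 had r = -0.81 and Mkrn3 and Ube3a -0.80 (adjusted exact permutation p = 0.118 for each of these pairs). For Magel2 and Mkrn3, r was 0.66 without m665 and m659, the 2 mice farthest out on Magel2, and Mkrn3 held 14 to 26 counts per mouse. The median r was -0.03 within domains and 0.07 over 563 pairs from different domains. Over all 595 pairs, 0 passed the adjustment and 45 had an unadjusted p under 0.05. Peg10 and Dlk1, on different chromosomes, had r = 0.91 (adjusted exact permutation p = 0.310). Both were called higher in Adrb1+/m;PS19, a difference that this r includes. After each genotype's mean was removed, their r was 0.81. Mouse m665 held the lowest value of 13 of the 35 members, Peg10, Dlk1, Usp29 and Asb4 among them, and m658 the highest value of 10.

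**Figure D4:**
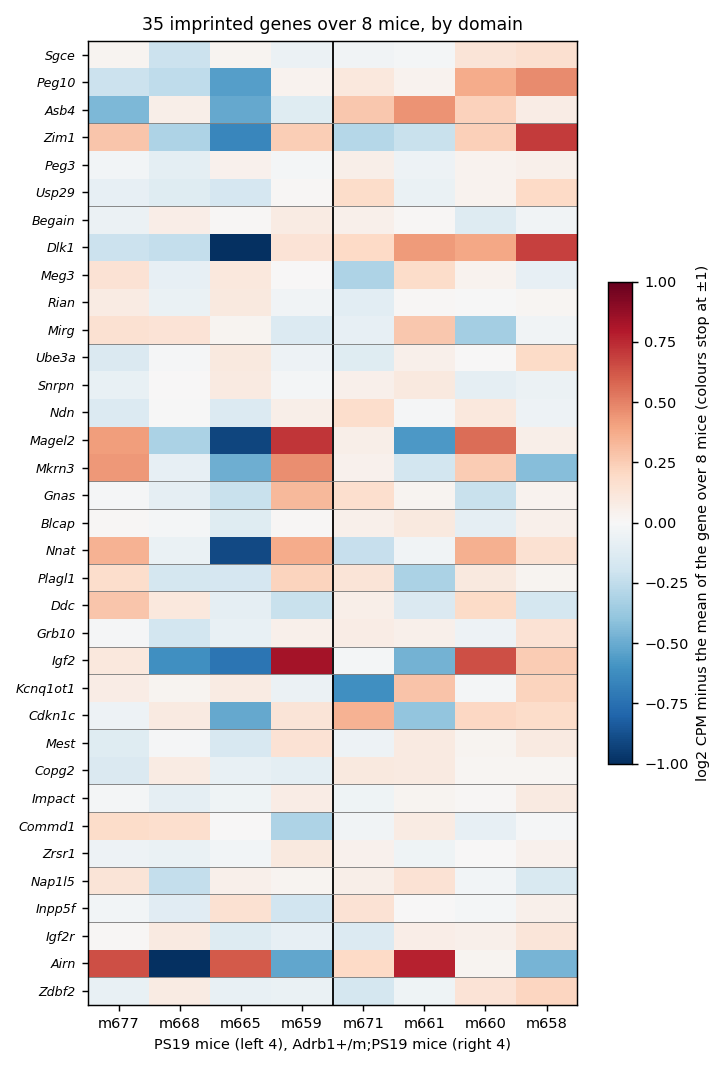
Log2 CPM of the 35 tested imprinted genes minus the mean of each gene over the 8 mice, with genes in rows by domain, PS19 mice on the left and Adrb1+/m;PS19 mice on the right. Low values gather in m665, which is lowest for 13 of the 35 genes.

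Markers of cells that a cortical dissection could hold were measured beside these results. Of 8 markers of basal forebrain cholinergic neurons, 7 were called higher in Adrb1+/m;PS19 and none was at 0 counts in any mouse, with a median log2 difference of 0.67 and a summed level of 33.6 to 55.4 CPM in PS19 and 54.1 to 82.8 in Adrb1+/m;PS19. Ecel1, the 1 marker not called, was the largest part of this sum in every mouse. It held 12.6 of 33.6 CPM in m665, 22.7 of 39.7 in m677 and 34.0 of 82.8 in m658. Chat, Slc5a7 and Slc18a3 were lowest in m677 and not in m665, and no r was computed without Ecel1. Over the 8 mice, the log2 of the sum of all 8 markers was set against log2 CPM of each gene. It had r = 0.85 with Peg10, 0.84 with Dlk1 and 0.88 with Usp29, and rho = 0.81, 0.64 and 0.86. The exact permutation p-values of r were 0.00856, 0.00593 and 0.00652, and adjusted over the 280 relations of 35 genes with 8 lists they were 0.266, 0.230 and 0.230. Those of rho were 0.0218, 0.0962 and 0.0107, and 0.554, 0.709 and 0.429 when adjusted. Peg10, Dlk1 and Usp29 are shown because they were called higher, as were 7 of the 8 markers. The r over both genotypes carries that shared difference, so these p-values are a description and not a test. Of the 280 relations, 25 had an unadjusted p under 0.05 (Pearson's r, exact permutation) and 0 an adjusted one. Begain with the cortical excitatory neuron markers had the smallest, 0.00164. Without the 2 mice farthest out on the marker sum, m665 and m658, r was 0.53, 0.50 and 0.74, and within genotypes it was 0.68, 0.69 and 0.76. Other lists reached such values within genotypes, with r = 0.88 for Usp29 and the hypothalamus list and 0.69 for Peg10 and the thalamus list. Dlk1 went the other way, with 0.58 for the thalamus list. Cdkn1c, which was not called, had r = 0.73 with the cholinergic sum over the 8 mice and 0.77 within genotypes. The part of basal forebrain cholinergic neurons in the higher Peg10, Dlk1 and Usp29 was not tested.

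**Figure D5:**
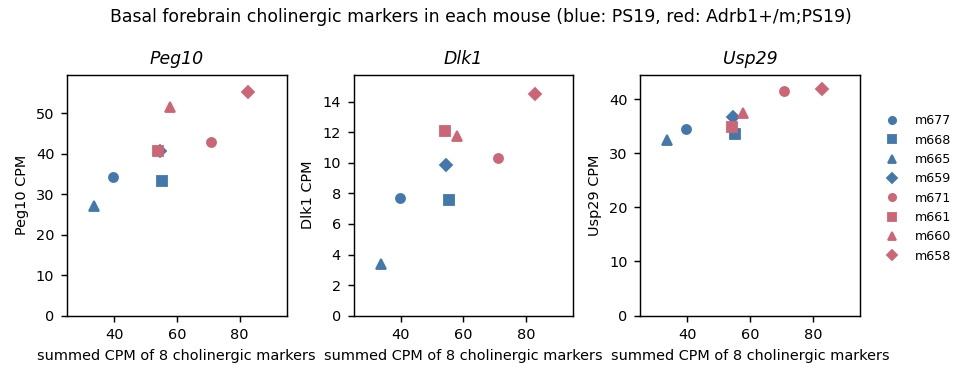
CPM of Peg10, Dlk1 and Usp29 against the summed CPM of 8 basal forebrain cholinergic markers, 1 point per mouse (PS19 blue, Adrb1+/m;PS19 red). Mouse m665 lies lowest and m658 highest in each panel. The axes are linear, while the r over the 8 mice, 0.85, 0.84 and 0.88, were computed on log2 values.

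Of 10 markers of cortical excitatory neurons, 1 was called higher and 3 lower, with a median of -0.14. Striatal projection neuron markers had 1 of 10 called higher and a median of 0.34. In the lists for choroid plexus (9 tested), leptomeninges and fibroblasts (11), hypothalamus (6), monoaminergic neurons (3) and thalamus (8), 0 markers were called, with medians of 0.35, 0.08, 0.22, 0.25 and 0.10. The part of these cells in the members' values was not tested either.

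Of 62 further imprinted genes listed, 57 were in the table and 42 were tested. Rtl1, a retrotransposon-derived gene of the Dlk1-Dio3 domain, was called higher, 0 were called lower, and the share of 2.38% stands beside 2.8% of all genes. Rtl1 was at 5.27, 5.38, 5.62 and 5.06 CPM in PS19 and at 6.36, 8.81, 5.37 and 8.49 CPM in Adrb1+/m;PS19, which overlap through m660, with a difference of 0.45 ± 0.17. Its call was lost without m661 or m658, and without m658 and m668 together. Dio3, a thyroid hormone deiodinase gene at the far end of the same domain, named here after its values were seen, had the opposite sign and was not called. It ranged from 0.755 to 2.71 CPM in PS19 and from 1.20 to 1.57 CPM in Adrb1+/m;PS19, which overlap through m665, with a difference of -0.56 ± 0.35. Of 15 factors that maintain imprints, 13 were tested and 0 were called in either direction by edgeR at the unadjusted threshold, with a median of 0.04.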

How the data were processed

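Cortex RNA of 8 mice was sequenced as paired-end reads. The authors aligned reads with HISAT2 2.0.5 to GRCm38 and deposited raw counts per gene from featureCounts 1.5.0-p3, and strand and multimapping settings are not given in the sources used here. The submitters' notes also name DESeq2 1.20.0. The counts were tested with edgeR 4.0.16 (R 4.3.3): genes were filtered with filterByExpr (17195 of 54532 kept), scaled by TMM and fitted with the quasi-likelihood test on genotype, with calls at an unadjusted p under 0.05, the p threshold the study applied to its own DESeq2 test, and SE was the log2 fold change over the root of F. CPM were TMM scaled, log2 CPM used a prior count of 2, and TPM used the gene lengths in the table. Alternatives were DESeq2 1.42.0, limma 3.58.1 (voom), DESeq2 size factors, other filters and prior counts, and leaving out each mouse.

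Libraries held 14653222 to 21223754 counts. Floors and the counting error given for a CPM value cover counting only. The SE and SD written after ± also include differences between mice. Replicates differed by more than sampling noise (chi-square per degree of freedom 4.87 to 10.2), and all 8 were kept. Mice of a genotype are separate animals. On simulated data of 16968 genes, 95.4% of 200 genes changed 2-fold and 4.97% of unchanged genes had an unadjusted p under 0.05. A 2-fold change is larger than that of any tested member, the largest being 0.78 on the log2 scale, so smaller changes were not simulated. In the data, 2.8% of all genes tested were called, which is under that 4.97%.

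The members and lists were chosen with earlier results of these data known. The set of 595 pairs, the 280 relations with marker lists, the ratios between neighbours, the promoter letters and the fit without m658 and m668 were chosen after seeing the data. Genes were named by rule: Peg10, members called or not overlapping, the highest TPM and the untested members of each domain, antisense or host pairs, pairs with an adjusted p under 0.05, and further imprinted genes or factors that were called. This named 28 members, and the other 10 are given to account for all 38. The pictures' 3 domains were chosen after values were seen.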

Additional observations from a re-analysis of the deposited data

Results flagged for a closer look

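In groups of 4 mice, 1 mouse stood far from the other 3 in 2 of 86 groups tested, by Dixon's ratio of the gap to the range at its 95% level. Chance alone gives about 1 in 20. Zdbf2 was at 37.6 CPM in PS19 mouse m668 and at 33.6 to 33.9 CPM in the other 3 PS19 mice, a ratio of 0.94. The summed level of choroid plexus markers was 609 CPM in Adrb1+/m;PS19 mouse m658 and 31.4 to 79.1 CPM in the other 3, a ratio of 0.917.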

How the results depend on the processing

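The count of imprinted genes called stayed between 2 and 4 over 14 alternatives. The number of further imprinted genes and maintenance factors called was 2 with no filter beyond 1 count, 0 without m658 and m668, and 0 to 3 when 1 mouse was left out, against 1 as reported. The median log2 fold change of the imprinted genes was 0.0172 without m658 and m668 and 0.0200 to 0.0674 when 1 mouse was left out, the lowest without m658. Pairs within a domain with an adjusted p under 0.05 (exact permutation) numbered 0 to 2 when 1 mouse was left out, with Zrsr1 and Commd1 passing without m660, and with Magel2 and Mkrn3 beside them without m658. Of 503 single-gene values, 489 kept their side of the threshold or stayed within 1 SD, 8 lost a call (Usp29 and Rtl1) and 6 gained one (Asb4, Copg2 and Inpp5f). Asb4 was called in 3 of 14 alternatives. Sign changes occurred among uncalled genes, with Magel2 ranging from -0.27 to 0.27 and Nnat from -0.15 to 0.20. The cause was not tested. Depth limits H19, Phlda2 and Calcr, which had too few counts to be tested. No paired analysis was possible because no label ties a mouse of one genotype to a mouse of the other.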
